A study of Mus musculus with 12 samples.

Results

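The RNA of 10 genes that arm cytotoxic lymphocytes was followed in splenic CD4+ T cells of mice with and without ligature-induced periodontitis. The genes were the granule proteases Gzma, Gzmb and Gzmk, the pore former Prf1, the granule membrane protein Nkg7, the cysteine protease Ctsw, the chemokine Ccl5 and the receptors Klrg1, Klrd1 and Cd244a. They were chosen by name, with earlier results on the LIP and CTL groups known, and all 10 were found among the 55414 gene records of the count table, of which 28221 had a count in any library. The cells came from male BALB/c mice aged 18 weeks. In the LIP group a silk ligature had been placed around the maxillary second molars, whereas the CTL group received none. CD4+ T cells were purified from the spleen by negative selection, which removes other cells with antibodies and leaves the wanted cells untouched. They were sequenced either at once (day 0) or after 2 days of culture with IL-2 (10 ng/ml per the labels), anti-TCRβ antibody (1 μg/ml) and anti-CD28 antibody (1 μg/ml). Each of the 4 groups (CTL and LIP on day 0, CTL and LIP on day 2) had 3 libraries, named here by the number in their label. The labels do not say that each library came from its own mouse, so p-values measure the spread between these libraries, which may be technical. On day 2, the label of CTL 93 and that of LIP 96 list anti-CD29 where the others list anti-CD28, both libraries numbered 97 list anti-CD30, and the paper's methods give other concentrations of IL-2 and anti-TCRβ.

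Cytotoxic lymphocytes kill by releasing granules toward a target cell. Perforin, the product of Prf1, opens pores in the target membrane, and granzymes enter through them and cleave proteins inside. CD8+ T cells and natural killer (NK) cells are the main carriers of this programme, and a smaller set of effector and aged CD4+ T cells also expresses it. Granzyme B is known to be strongly transcribed after stimulation through the T cell receptor with IL-2, whereas granzyme K marks resting effector-memory cells.

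All 10 are protein-coding genes (GRCm39, GENCODE M39). Gzma at chr13:113230355-113237524 and Gzmk at chr13:113308142-113362442 are neighbours in the granzyme cluster of one chromosome, while Gzmb at chr14:56496295-56499717 lies in another. Klrg1 at chr6:122246981-122259914 and Klrd1 at chr6:129568677-129575738 share a chromosome. The others are Prf1 at chr10:61133546-61140461, Nkg7 at chr7:43086497-43087678, Ctsw at chr19:5515071-5518535, Ccl5 at chr11:83416602-83425942 and Cd244a at chr1:171386708-171437315.

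The promoters of Gzmb, the gene that rose between the days, and of Gzmk, a granzyme gene that fell, are shown because they moved in opposite directions. Each sequence is the 300 bases before the start of the gene's canonical transcript (GRCm39 reference genome, GENCODE M39 annotation, both genes on the minus strand), printed 5′ to 3′ on the strand of the gene. Capitals mark the matches on either strand to the letters searched, which were ACCACA for RUNX factors, GGTGTGA for T-box factors and TGANTCA for AP-1. The reference is not the BALB/c genome, so single bases may differ in these mice.
Gzmb promoter, chr14:56499718-56500017: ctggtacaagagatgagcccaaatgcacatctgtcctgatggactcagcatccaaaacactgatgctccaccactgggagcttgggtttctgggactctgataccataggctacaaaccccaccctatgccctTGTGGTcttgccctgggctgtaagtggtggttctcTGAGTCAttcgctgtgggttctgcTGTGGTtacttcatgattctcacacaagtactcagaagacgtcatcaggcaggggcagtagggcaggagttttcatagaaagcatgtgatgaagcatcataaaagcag
Gzmk promoter, chr13:113317432-113317731: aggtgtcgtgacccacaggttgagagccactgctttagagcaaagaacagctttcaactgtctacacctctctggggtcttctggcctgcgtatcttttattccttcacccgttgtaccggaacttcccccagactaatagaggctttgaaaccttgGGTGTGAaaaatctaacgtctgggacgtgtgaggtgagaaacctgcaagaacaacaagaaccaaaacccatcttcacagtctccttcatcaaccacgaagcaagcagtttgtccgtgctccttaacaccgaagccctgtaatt

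The Gzmb window held 2 matches to the RUNX letters, read on the reverse strand as TGTGGT, and 1 match to the AP-1 letters between them. The Gzmk window held 1 T-box match and none to the other letters. Among the 10 promoters, 5 held the RUNX letters (Gzma, Gzmb, Prf1, Nkg7 and Klrd1), against 15.6% of the 21756 promoters of protein-coding genes searched in the same way. The AP-1 letters were found in 4 (Gzma, Gzmb, Klrd1 and Cd244a), against 7.38% of all promoters, and the T-box letters in 2 (Gzmk and Nkg7), against 3.97%. A match describes the letters in this window and does not show that a factor binds there.

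The libraries held between 6249018 and 12866718 expected counts. Levels are given as CPM, the count divided by the size of its library, which is the library's total times a TMM factor, and a count of 3, which is as much as a count of 0 can hide, equalled 0.268 to 0.451 CPM for counting error only. Cd4 ranged from 421 to 643 CPM over the 12 libraries and Cd8a from 0.105 to 2.24 CPM. CTL 89 had the lowest level of the 6 day 0 libraries for 8 of the 10 genes and the highest for Prf1.

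Between day 0 and day 2, Gzmb rose 71.5-fold in the CTL group and 60.4-fold in the LIP group, while most of the other cytotoxic genes fell. In the CTL group, edgeR's quasi-likelihood test across 15475 genes found that 1 of the 10 genes rose and 6 fell (Gzmk, Prf1, Ccl5, Klrg1, Klrd1 and Cd244a). In the LIP group 1 rose and 8 fell, the same 6 with Nkg7 and Ctsw. Culture changed a large part of the transcriptome, and 35.3% of all genes tested rose and 33.7% fell in the CTL group, against 36.6% and 35.2% in the LIP group. The median log2 fold change of the 10 genes was -2.54 for CTL and -2.46 for LIP, against -0.0221 and -0.00281 over all genes tested. The genes were chosen for the LIP and CTL comparison, but the interaction known at that time is the difference of these contrasts, so the choice was not fully independent of them. In bulk RNA, a loss of the cells that carry a transcript and a loss of transcript per cell cannot be told apart.

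**Figure D1:**
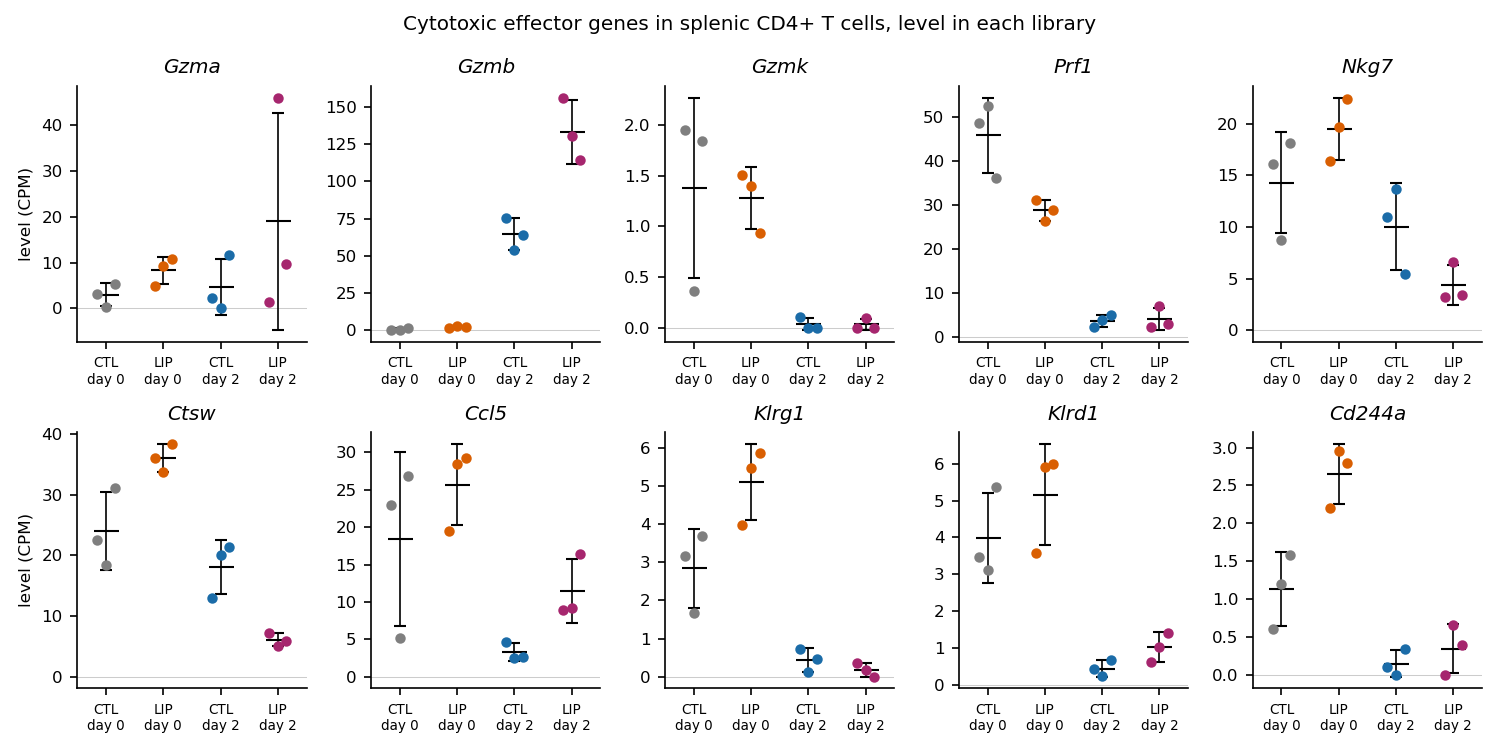
Level in CPM (vertical axis, linear, own scale in each panel) of each of the 10 genes in the 4 groups. Points are libraries, the horizontal mark is the mean and the bar the SD of 3 libraries. Gzmb lies at 0.36 to 2.81 CPM in the day 0 libraries and at 53.8 to 156 CPM in the day 2 libraries, whereas Prf1, Gzmk, Klrg1 and Klrd1 lie lower in every day 2 library than in any day 0 library.

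Among the granzymes, Gzmb, which cleaves after aspartate and activates caspases in the target, was barely counted on day 0. Its level was 0.601, 0.36 and 1.71 CPM in CTL 88, 89 and 94 and 1.37, 2.81 and 2.4 CPM in LIP 92, 93 and 94. On day 2 it reached 75.3, 53.8 and 64.1 CPM in CTL 92, 93 and 97 and 156, 130 and 114 CPM in LIP 90, 96 and 97. The days did not overlap in either group, and on day 2 every LIP library lay above every CTL library. The log2 fold change from day 0 to day 2 was 6.16 ± 0.32 (SE) in the CTL group (71.5-fold, adjusted p = 2.76e-09) and 5.92 ± 0.28 in the LIP group (60.4-fold, adjusted p = 1.36e-09). Without CTL 94 of day 0 the CTL value was 7.09, so the size of the rise rests on the few counts of day 0 and the order of the groups is not established. The promoter of Gzmb is the one printed above with RUNX and AP-1 letters.

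Gzmk, a trypsin-like granzyme, moved the other way. Its counts on day 0 were 13, 3 and 14 in the CTL libraries, against 11, 10 and 7 for LIP, or 0.36 to 1.95 CPM. On day 2 only 1 count was left in the CTL group, in CTL 92, and 1 in the LIP group, in LIP 96. With 30 counts on day 0 and 1 on day 2, the CTL group kept 2.82% of its day 0 level (95% exact counting interval 0.0691% to 16.9%). The LIP group kept 2.64% (0.0645% to 16%), from 28 counts to 1. Both falls passed edgeR's test (adjusted p = 0.000608 and 0.000541). Gzmk shares exonic sequence with an antisense noncoding gene, Gm59720, and whether counting used strand is not given in the sources used here.

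Gzma, a tryptase that acts without caspases, differed widely between libraries of a group. On day 0 it stood at 3.16, 0.36 and 5.38 CPM in the CTL libraries, against 4.95, 9.26 and 10.7 CPM for LIP. On day 2 it was 2.32, 0 and 11.6 CPM in CTL 92, 93 and 97 and 1.34, 46.1 and 9.7 CPM in LIP 90, 96 and 97. The days overlapped in both groups, and the log2 fold change was 0.67 ± 1.24 in the CTL group (adjusted p = 0.646) and 1.20 ± 1.01 in the LIP group (adjusted p = 0.296). With no filter on low counts the LIP value passed the threshold (1.24, adjusted p = 0.00623). Without LIP 96 the change in the LIP group was -0.64, and without CTL 97 that in the CTL group was -1.25. LIP 96 also had the highest summed level on day 2 of NK markers (5.05 CPM, against 0 to 1.25 in the other day 2 libraries) and of CD8 T cell markers (13.2 CPM, against 4.42 to 9.19), and their part in its Gzma level was not tested.

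Prf1 fell with stimulation in both groups. Its level was 48.7, 52.5 and 36.1 CPM in the CTL libraries of day 0 and 31.2, 26.4 and 28.8 CPM in the LIP libraries. On day 2 it was 2.22, 3.81 and 4.99 CPM in the CTL libraries, against 2.33, 6.92 and 2.85 CPM for LIP. Each day 0 library lay far above each day 2 library. The fall was -3.64 ± 0.33 on the log2 scale in the CTL group (12.5-fold lower, adjusted p = 4.34e-07) and -2.81 ± 0.32 in the LIP group (7.04-fold lower, adjusted p = 3.68e-06), which became -3.48 without LIP 96 of day 2. Gzmb, whose protein needs perforin to reach its substrates, thus changed in the opposite direction to Prf1 in the same libraries.

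Nkg7, a membrane protein of cytotoxic granules that is needed for their release, stood at 16.1, 8.77 and 18.1 CPM in the CTL libraries of day 0 and 16.4, 19.7 and 22.4 CPM in the LIP libraries. On day 2 the CTL libraries held 11, 13.7 and 5.44 CPM and the LIP libraries 3.22, 6.64 and 3.36 CPM. The CTL days overlapped, and the change was -0.51 ± 0.34 on the log2 scale (adjusted p = 0.2). The LIP days did not, and Nkg7 fell by 2.13 ± 0.36 (4.37-fold lower, adjusted p = 0.000134).

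Ctsw, or cathepsin W, a papain-family protease found mainly in NK cells and cytotoxic T cells, followed the same pattern more sharply. The CTL libraries held 22.5, 18.4 and 31.1 CPM on day 0 and 13, 20 and 21.3 CPM on day 2, whereas the LIP libraries held 36, 33.7 and 38.3 CPM on day 0 and 7.24, 5.05 and 5.95 CPM on day 2. The LIP libraries were thus above all CTL libraries on day 0 and below all of them on day 2. The change was -0.41 ± 0.21 in the CTL group (adjusted p = 0.0973), and Ctsw fell by 2.56 ± 0.23 in the LIP group (5.9-fold lower, adjusted p = 3.12e-07). The CTL value passed the threshold when the libraries were scaled by their totals alone (-0.60, adjusted p = 0.0188), by the upper quartile (-0.70, adjusted p = 0.00752) or without CTL 89 of day 0 (-0.57, adjusted p = 0.0334). Ctsw shares exonic sequence with Fibp, an antisense protein-coding gene, which fell by 0.60 and 0.63 on the log2 scale in the CTL and LIP groups.

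Ccl5 encodes a chemokine that is made by memory and cytotoxic T cells and draws in other leukocytes. On day 0 it stood at 23, 5.17 and 26.9 CPM in the CTL libraries, against 19.5, 28.4 and 29.3 CPM for LIP, with CTL 89 far below the rest. On day 2 it was 4.64, 2.5 and 2.61 CPM in the CTL libraries, against 8.94, 9.16 and 16.4 CPM for LIP. Every day 2 LIP library was above every day 2 CTL library. Ccl5 fell by 2.47 ± 0.50 in the CTL group (5.54-fold lower, adjusted p = 0.000612) and by 1.18 ± 0.43 in the LIP group (2.27-fold lower, adjusted p = 0.0253). The call in the LIP group was lost with DESeq2 (adjusted p = 0.0583) and on leaving out LIP 93 or 94 of day 0 or LIP 90 or 96 of day 2 (adjusted p = 0.0627 to 0.0774).

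The 3 receptors were low and fell in both groups. Klrg1, an inhibitory receptor for cadherins that marks terminally differentiated cells, stood at 1.68 to 3.68 CPM in the CTL libraries and 3.99 to 5.87 CPM in the LIP libraries on day 0. On day 2 the CTL libraries held 7, 1 and 4 counts of Klrg1 and the LIP libraries 4, 2 and 0, so that its level was at most 0.738 CPM. Klrg1 fell by 2.62 ± 0.55 in the CTL group (adjusted p = 0.000723) and by 4.58 ± 0.59 in the LIP group (adjusted p = 9.19e-06). These values became -3.21 without CTL 92 and -5.38 without LIP 90 of day 2.

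Klrd1 encodes CD94, the partner chain of the NKG2 receptors. Its level was 3.46, 3.12 and 5.38 CPM in the CTL libraries, against 3.57, 5.9 and 6 CPM for LIP on day 0, and 0.422, 0.238 and 0.68 CPM and 0.626, 1.03 and 1.42 CPM on day 2. No day 2 library reached the lowest day 0 library. The fall was -3.11 ± 0.45 in the CTL group (8.63-fold lower, adjusted p = 2.88e-05) and -2.35 ± 0.38 in the LIP group (5.12-fold lower, adjusted p = 8.5e-05).

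Cd244a encodes 2B4, a receptor of the SLAM family that binds CD48. It was counted at 4, 10 and 12 in the CTL libraries, against 16, 21 and 21 for LIP on day 0. On day 2 the counts were 1, 0 and 3 in the CTL libraries, against 0, 7 and 3 for LIP. The days did not overlap in CPM in either group. Cd244a fell by 2.81 ± 0.89 in the CTL group (adjusted p = 0.00953) and by 2.91 ± 0.67 in the LIP group (adjusted p = 0.00138), and at such counts the fitted size depends on the small count that the model adds. It was -4.03 without CTL 97 in the CTL group, and -2.27 without LIP 90 and -3.89 without LIP 96 in the LIP group.

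**Figure D2:**
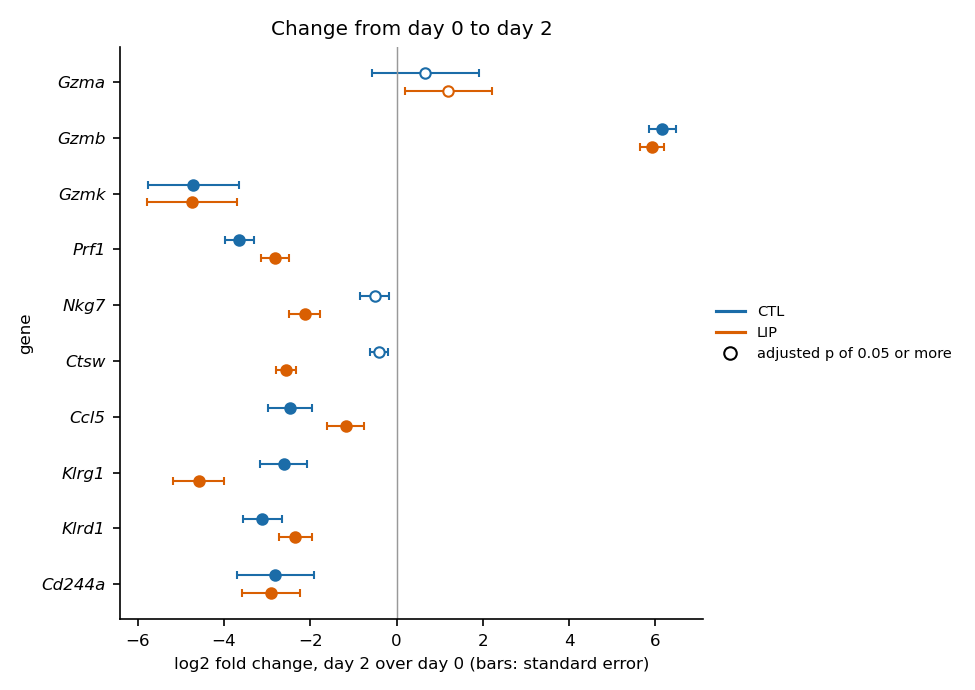
Log2 fold change from day 0 to day 2 (horizontal axis) of each gene in the CTL and LIP groups, with its standard error. Filled points have an adjusted p under 0.05 in edgeR's test across 15475 genes. Gzmb alone lies far to the right, at 6.16 and 5.92, and the open points are Gzma in both groups and Nkg7 and Ctsw in the CTL group.

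Levels of different genes can be compared only per transcript length, here as CPM per kb of the longest annotated transcript. On day 0 the CTL group was led by Ccl5 (27.5 ± 17.4 CPM per kb, SD), Prf1 (17.3 ± 3.24), Nkg7 (16.2 ± 5.57) and Ctsw (15.4 ± 4.15), whose library ranges overlapped. The range of Ctsw lay above that of Klrd1 (3.91 ± 1.2). Below Klrd1 came Gzma, Klrg1, Gzmk, Gzmb and Cd244a, each overlapping the next. The LIP group of day 0 had the order Ccl5 (38.5 ± 8.09), Ctsw (23 ± 1.46), Nkg7 (22.1 ± 3.43), Prf1 (10.9 ± 0.91), Gzma, Klrd1, Klrg1, Gzmb, Gzmk and Cd244a. Of its 9 neighbouring pairs, 3 had ranges that did not overlap, Ccl5 above Ctsw, Nkg7 above Prf1 and Klrd1 above Klrg1. Per kb of all annotated exons joined, Ccl5 was at 25.1 CPM per kb in this group, Nkg7 (21.2) came before Ctsw (19.1), and the ranges of Ccl5 (19 to 28.6) and Ctsw (17.9 to 20.3) overlapped, as did those of Klrd1 (2.68 to 4.49) and Klrg1 (1.93 to 2.85). On day 2 Gzmb led in both groups, at 44.8 ± 7.51 CPM per kb for CTL and 92.8 ± 14.9 for LIP, and its libraries lay above all those of the next gene. Prf1 was then at 1.39 ± 0.526 and 1.52 ± 0.949 CPM per kb. Gzmb made up between 0.439% and 1.66% of the summed level per length of the 10 genes in the day 0 libraries and between 52.5% and 81.6% in the day 2 libraries. The lowest share of day 2 was in CTL 93 and the highest in LIP 90.

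**Figure D3:**
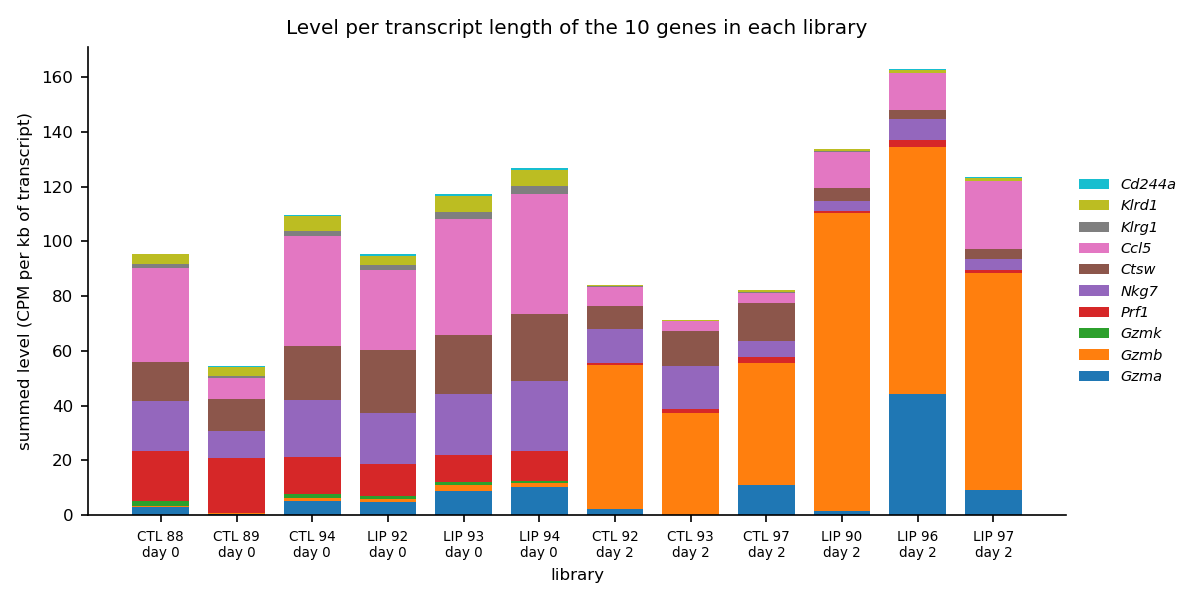
Stacked level of the 10 genes in each of the 12 libraries, in CPM per kb of the longest transcript. On day 0 the bars are made mainly of Ccl5, Ctsw, Nkg7 and Prf1, with CTL 89 the shortest (54.3), and on day 2 mainly of Gzmb, with the LIP bars (123 to 163) taller than the CTL bars (71.2 to 84.1).

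The comparison of the LIP group with the CTL group on each day was known when the genes were chosen, so its values are a description and not a test of these genes. On day 0, 8 of the 10 genes were higher in the mean in the LIP group and Gzmk and Prf1 were lower. With edgeR 0 of the 10 had an adjusted p under 0.05, a mark that 0.427% of 14064 genes reached, and 6 had an unadjusted p under 0.05, against 13.9% of all genes. DESeq2 called 2 of the 10, Prf1 (lower) and Ctsw (higher), against 1.46% of all genes. The libraries of the groups did not overlap for Ctsw, Klrg1 and Cd244a, where LIP was above (9.27% of all genes), and for Prf1, where LIP was below (9.85%). The log2 fold changes of LIP over CTL were 1.51 ± 0.53 for Gzma, 1.3 ± 0.53 for Gzmb, 1.21 ± 0.38 for Cd244a, 0.86 ± 0.31 for Klrg1 and 0.59 ± 0.16 for Ctsw. Those of Ccl5, Nkg7 and Klrd1 were 0.51 ± 0.39, 0.46 ± 0.23 and 0.38 ± 0.29. Prf1 was at -0.66 ± 0.13 (adjusted p = 0.064), the smallest p of the 10 genes on this day, and Gzmk at -0.07 ± 0.54.

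CTL 94 of day 0 had the highest level of its group for 8 of the 10 genes. Without it, the log2 fold changes became 2.34 for Gzma, 2.19 for Gzmb, 0.83 for Ctsw and -0.81 for Prf1, and these 4 genes had adjusted p-values of 0.0228, 0.0442, 0.00192 and 0.000721. In that fit 658 of the 14343 genes tested were called. Without CTL 89 the log2 fold changes of Gzma and Ccl5 shrank to 0.941 and 0.0417. Markers of NK cells were on the higher side in the LIP group of day 0, though the groups overlapped. The summed level of the 8 markers was 6.01, 3 and 8.27 CPM in CTL 88, 89 and 94 and 7.56, 9.54 and 12.8 CPM in LIP 92, 93 and 94. Of these markers 2 could be tested with edgeR, Ncr1 (0.855 ± 0.399, adjusted p = 0.367) and Klrb1c (0.755 ± 0.394, adjusted p = 0.419). Ncr1 stood at 0.961 to 2.71 CPM (CTL) and 2.47 to 4.93 CPM (LIP). Klra8 was at 0 in all 12 libraries and Klra4 had 1 count in CTL 88 alone. The reference is not the BALB/c genome, and whether these mice carry those 2 genes was not checked. Among the members, Prf1 was lower in every LIP library and Gzmk was lower in the mean. CTL 89 was the lowest in the NK sum and for 8 of the members and the highest for Prf1, and the part of NK cells in these levels was not tested. The same library was lowest of day 0 in the summed markers of memory and effector T cells (130 CPM, against 179 to 224 CPM) and of regulatory T cells (296 CPM, against 354 to 464 CPM). In the LIP group Ikzf2 (0.49 ± 0.14, adjusted p = 0.162), Il2ra (0.34 ± 0.081, adjusted p = 0.112) and Ly6c2 (0.85 ± 0.36, adjusted p = 0.322) of these lists had an unadjusted p under 0.05, as had 13.9% of all genes. Foxp3 (0.17 ± 0.12), Cd44 (0.04 ± 0.11), Cxcr3 (0.425 ± 0.243) and S100a4 (0.325 ± 0.376) of these lists did not, nor did Ctla4, which was on the lower side (-0.22 ± 0.21). The part of these cell states was not tested either. Markers of CD8 T cells (Cd8a and Cd8b1) summed to 4.73 to 6.73 CPM in the CTL group and 5.22 to 6.27 CPM in the LIP group, so these ranges overlapped.

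**Figure D4:**
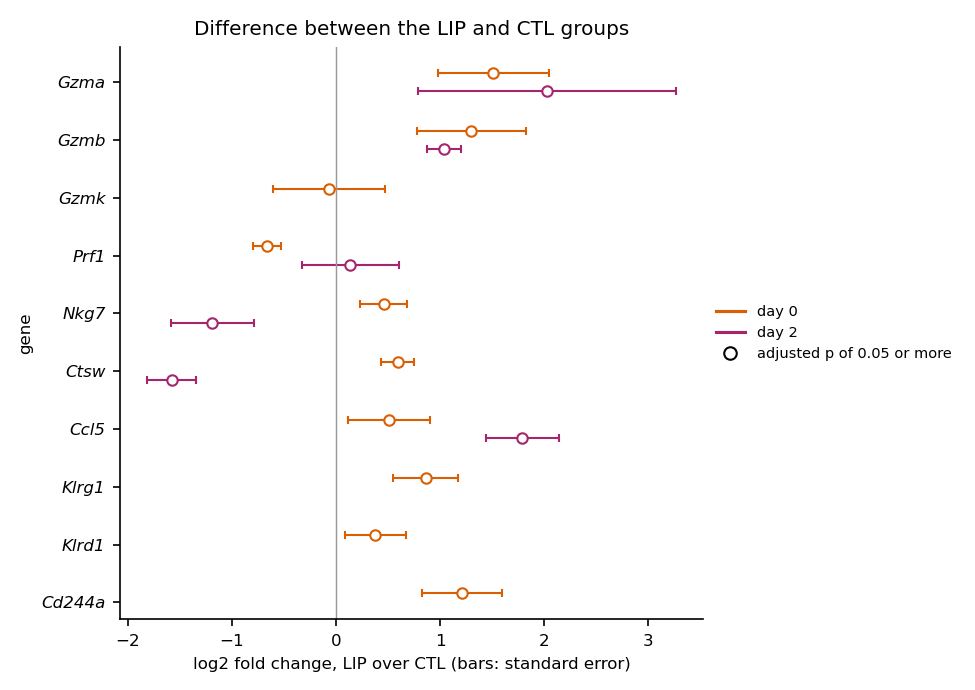
Log2 fold change of the LIP group over the CTL group (horizontal axis) on day 0 and day 2, with its standard error, for the genes with enough counts to test (10 on day 0, 6 on day 2). All points are open because no adjusted p was under 0.05, and Nkg7 and Ctsw lie to the right of 0 on day 0 and to the left on day 2.

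On day 2, 6 of the 10 genes had enough counts to be tested, and Gzmk, Klrg1, Klrd1 and Cd244a did not. With edgeR 0 of the 6 had an adjusted p under 0.05, as had 0% of 14041 genes. At an unadjusted p under 0.05 there were 4 (Gzmb, Ccl5, Ctsw and Nkg7), against 16.5% of all genes, and DESeq2 called 3 (Gzmb, Ccl5 and Ctsw), against 3.48%. Gzmb and Ccl5 were above in every LIP library (10.9% of all genes) and Ctsw below (10.5%). The log2 fold changes were 1.04 ± 0.16 for Gzmb (2.05-fold, adjusted p = 0.0997), 1.79 ± 0.35 for Ccl5 (3.47-fold, adjusted p = 0.114), -1.58 ± 0.24 for Ctsw (2.99-fold lower, adjusted p = 0.0992) and -1.19 ± 0.40 for Nkg7 (adjusted p = 0.208). Gzma was at 2.03 ± 1.24, which became 0.23 without LIP 96 and 3.96 without CTL 97 (adjusted p = 0.0826 to 0.977 on leaving out each library), and Prf1 at 0.14 ± 0.47. Some markers of other CD4+ T cell states also had an unadjusted p under 0.05 on day 2, as had 16.5% of all genes. Ly6c2, a memory and effector marker, was at 3.02 ± 0.61 (adjusted p = 0.118) and Cd44 of the same list at -0.48 ± 0.18 (adjusted p = 0.243). Cxcr3 of that list did not reach this mark (-0.20 ± 0.33), and S100a4 had too few counts to be tested. The regulatory T cell genes Foxp3 (-0.44 ± 0.13, adjusted p = 0.168) and Ikzf2 (-0.46 ± 0.12, adjusted p = 0.15) were on the lower side. Il2ra (0.07 ± 0.16, adjusted p = 0.864) and Ctla4 (-0.03 ± 0.24, adjusted p = 0.959) of their list had an unadjusted p above 0.05. The part of these cell states in the members' levels was not tested. LIP 90 stood apart from the other LIP libraries of day 2, with a chi-square per gene between the counts of 43.5 and 34.8 against LIP 96 and LIP 97, where those 2 libraries had 10.8 between them. Without LIP 90, Gzmb was at 0.93, Ccl5 at 1.97 and Ctsw at -1.71, with adjusted p-values of 0.00398, 0.00663 and 0.00301, and 2014 genes in all were called.

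The difference between the groups was itself compared between the days in one fit of all 12 libraries. Ctsw had an interaction of -2.15 ± 0.31 on the log2 scale (adjusted p = 0.023), one of the 8 genes that passed (0.0517% of 15475). This result was also known when the genes were chosen and is given as a description. It kept its direction on leaving out each library, between -2.41 and -1.98, but its adjusted p was above 0.05 in 8 of the 12 cases, at 0.0514 to 0.12. Fibp, the gene antisense to Ctsw, had an interaction of -0.03 ± 0.19. Nkg7 (-1.62 ± 0.50, adjusted p = 0.137) and Klrg1 (-1.96 ± 0.91, adjusted p = 0.301) had an unadjusted p under 0.05, as had 15.9% of all genes. For the 9 genes other than Ctsw, the change with stimulation was not shown to differ between the groups.

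The genes that build, store and release cytotoxic granules were followed through 8 lists that hold 54 further genes, of which 44 could be tested between the days. Of these, 22 rose and 15 fell in the CTL group and 23 rose and 14 fell in the LIP group. Over all genes tested, 35.3% rose and 33.7% fell (CTL) and 36.6% rose and 35.2% fell (LIP), so the falls among the list genes were near the background, and each list below is to be read against these shares. None of the 6 other granzymes (Gzmc, Gzmd, Gzme, Gzmf, Gzmg and Gzmm) had enough counts to be tested, and the highest mean among them was 0.986 CPM, for Gzmm in the CTL group of day 0.

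Genes of the granule matrix and of granzyme control rose. In the CTL group 4 of the 5 tested rose and 0 fell (median log2 fold change 2.50), and in the LIP group 5 of 5 rose (median 3.14). They included Cst7 (4.28 ± 0.26 for CTL and 3.88 ± 0.26 for LIP), the gene of cystatin F, which inhibits the cathepsins that mature granzymes. Srgn, the proteoglycan that packs granzymes, changed by 2.50 ± 0.17 and 3.14 ± 0.17, and Serpinb6b, a serpin, by 2.75 ± 0.47 and 3.69 ± 0.48. Of the genes of granule transport and release 6 of 7 rose and Lyst fell in each group, with Stx11, a syntaxin of the fusion step, at 2.92 ± 0.22 and 2.30 ± 0.21, Lamp1 at 0.96 ± 0.10 and 1.02 ± 0.10 and Vamp8 at 0.74 ± 0.12 and 0.77 ± 0.12.

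Among the death ligands and effector cytokines, 3 of 5 rose and 2 fell in each group. Tnf changed by 1.80 ± 0.11 for CTL and 1.74 ± 0.11 for LIP and Lta by 3.10 ± 0.21 and 2.89 ± 0.20, whereas the death ligand gene Tnfsf10 fell by 1.22 ± 0.14 and 1.25 ± 0.14. Among the other effector chemokines, Ccl3 and Ccl4 rose and Xcl1 fell in each group. Ccl3, an inflammatory chemokine, changed by 5.46 ± 0.735 and 4.49 ± 0.735, in the opposite direction to Ccl5. Its day 0 counts summed to 5 (CTL) and 6 (LIP), so the size of this rise rests on few counts. Ccl4, which is close to Ccl3 in sequence, went from a mean of 0.0939 to 7.56 CPM in the CTL group and from 0.406 to 11.3 CPM in the LIP group. Xcl1 changed by -1.50 ± 0.53 and -2.61 ± 0.51.

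Of the NK-type receptors, with the ligand and adaptors of Cd244a, 1 of 9 rose and 5 fell in each group. Slamf7, a SLAM receptor like Cd244a, was the one that rose (3.14 ± 0.32 and 1.79 ± 0.31), and Sh2d1a, the gene of the adaptor SAP, fell by 2.21 ± 0.26 and 1.76 ± 0.25. Klrc1, which pairs with Klrd1, fell by 2.43 ± 0.51 and 1.43 ± 0.45. Cd160 was at -0.05 ± 0.16 in the CTL group (adjusted p = 0.793) and fell by 0.89 ± 0.17 in the LIP group. Among 9 transcription factors of cytotoxic cells 4 rose and 3 fell in each group. Bhlhe40 changed by 3.39 ± 0.18 and 3.95 ± 0.18 and Tbx21, which encodes T-bet, by 2.55 ± 0.23 and 1.86 ± 0.22, while its relative Eomes fell by 2.16 ± 0.35 and 1.42 ± 0.32, and Runx3 rose by 0.45 ± 0.11 and 0.85 ± 0.11. Of 5 factors of helper or stem-like identity, 1 rose and 3 fell in the CTL group and 1 rose and 2 fell in the LIP group, with Tcf7 at -1.71 ± 0.11 and -1.99 ± 0.11, Lef1 at -1.37 ± 0.13 and -1.43 ± 0.13 and Bach2 at 1.49 ± 0.14 and 1.07 ± 0.14.

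Between the LIP and CTL groups, 0 of the 42 list genes tested on day 0 and 0 of the 39 tested on day 2 had an adjusted p under 0.05 with edgeR. On day 0, 8 had an unadjusted p under 0.05, where 13.9% of all genes did, so this count is not a result about the lists. Among them, Xcl1 (0.73 ± 0.34), Slamf7 (0.65 ± 0.24), Tnfsf10 (0.31 ± 0.095), Tnf (0.28 ± 0.12) and Unc13d (0.20 ± 0.08) were on the higher side and Bcl6 (-0.49 ± 0.14) and Ctsc (-0.18 ± 0.08) on the lower side. Day 2 had 10 such genes, against 16.5% of all genes. Klrk1, the NKG2D receptor gene, stood at 1.91 ± 0.39, Eomes at 0.91 ± 0.37, Bhlhe40 at 0.58 ± 0.15 and Serpinb9, an inhibitor of granzyme B, at 0.54 ± 0.22. On the lower side were Ifng (-1.10 ± 0.42), Bcl6 (-0.96 ± 0.35), Cd160 (-0.77 ± 0.18), Slamf7 (-0.73 ± 0.30), Bach2 (-0.57 ± 0.16) and Cst7 (-0.36 ± 0.16).

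**Figure D5:**
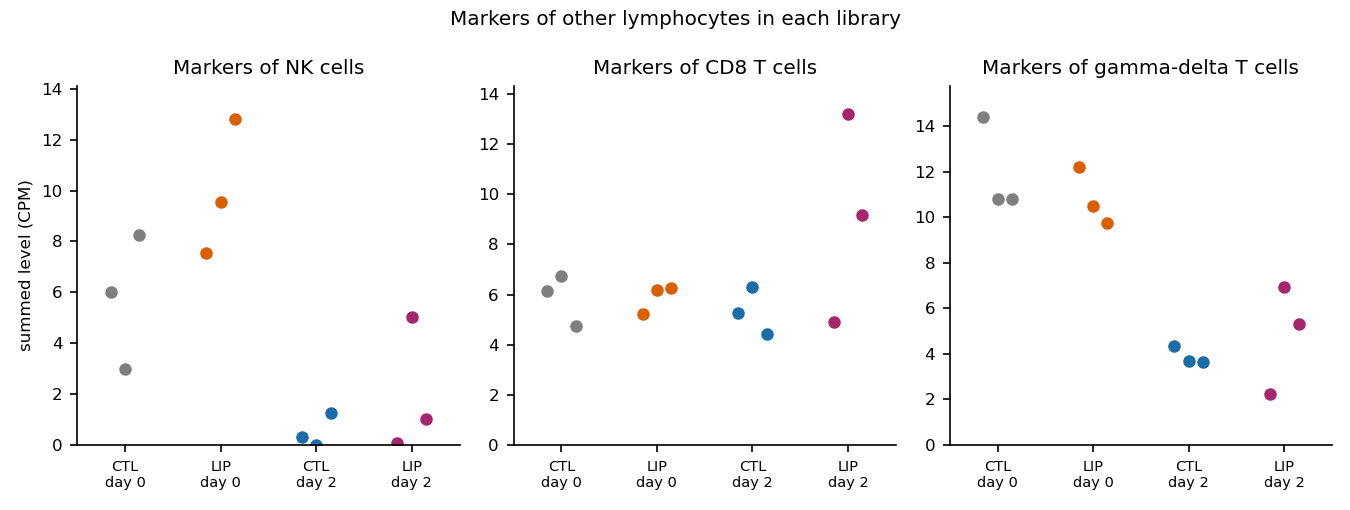
Summed CPM of the marker lists of NK cells, CD8 T cells and gamma-delta T cells (vertical axis, own scale in each panel) in each library of the 4 groups. NK markers lie at 3 to 12.8 CPM on day 0 and at 0 to 5.05 CPM on day 2, where CTL 89 is the lowest of day 0 and LIP 96 the highest of day 2. LIP 96 is also the highest in the CD8 panel.

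NK cells are known to express most of the 10 genes, and their marker Ncr1, an activating receptor, fell by 4.51 ± 0.78 in the CTL group (adjusted p = 0.000104) and by 4.08 ± 0.59 in the LIP group (adjusted p = 2.7e-05). Its counts went from 45 to 2 (CTL) and from 80 to 6 (LIP), so the size of the fall rests on few counts. With edgeR Klrb1c also fell (adjusted p = 8e-04 and 0.000752), whereas Tyrobp, the other NK marker tested, was not called (adjusted p = 0.192 and 0.807). The summed level of the 8 NK markers was 0.316, 0 and 1.25 CPM in CTL 92, 93 and 97 and 0.0894, 5.05 and 1.03 CPM in LIP 90, 96 and 97 of day 2. At the same time the CD8 T cell markers stood at 4.42 to 6.32 CPM in the CTL group and 4.92 to 13.2 CPM in the LIP group of day 2, which overlapped their day 0 ranges. The gamma-delta T cell markers found (Trdc and Sox13) went from 10.8 to 14.4 CPM and 9.73 to 12.2 CPM on day 0 to 3.63 to 4.33 CPM and 2.24 to 6.92 CPM on day 2. NK markers held 1 count in all in LIP 90 of day 2, where Gzmb stood at 156 CPM, its highest level. In CTL 93 they held 0 counts, and Gzmb stood at 53.8 CPM, its lowest level of day 2. The part of NK, CD8 and gamma-delta T cells in the level of Gzmb and in the falls of Prf1, Klrd1 and the other genes was not tested.

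Likeness to other genes was measured as Pearson's r of log2 CPM over the 12 libraries, among 15474 genes, and the days set most of it, since 6 libraries belong to each. Gzmb was most like Rnh1 (r = 0.994) and Il12rb1 (r = 0.992), and Prf1 most like Myo18a (0.993) and Elovl7 (0.987). Nkg7 was followed by Map3k9 (0.963) and Itgae (0.958), and Ctsw by Ncmap (0.971) and Pde11a (0.962). Klrd1 was most like Pts (0.985) and 2610037D02Rik (0.985), Cd244a like Arap3 (0.981) and Uvssa (0.969), Klrg1 like Gm37655 (0.979) and Jrk (0.978), and Gzmk like Gm42908 (0.979) and Fbxl5 (0.976). Ccl5 (Nsmaf, 0.94, and Fam219a, 0.936) and Gzma (Derl2, 0.892, and Hadhb, 0.885) had the least close partners.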

How the data were processed

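Splenic CD4+ T cell RNA was depleted of ribosomal RNA and sequenced from directional libraries, 3 for each of 4 groups. The submitters' processing notes name FastQC 0.11.9, Trimmomatic 0.38 and RSEM 1.3.0, and reads were assigned to GRCm39 genes. The deposited table holds expected counts, which the authors made with RSEM and did not normalize. Of its values 73267 were not whole, and all were rounded. The authors' tables of each day were used only to pair gene symbols with identifiers. Their normalized values, fold changes and p-values were not used, nor were 2 library columns of day 2 that match no labelled sample.

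Genes were filtered with filterByExpr, scaled by TMM and tested with the quasi-likelihood test of edgeR 4.0.16 (R 4.3.3), with Benjamini-Hochberg adjustment over all genes tested and a threshold of 0.05. LIP was compared with CTL on the 6 libraries of a day, and the days and the interaction on all 12. Standard errors were derived from the coefficient and its F statistic. Steps were tested on simulated counts, where a log2 change of 1 was recovered for 70.5% of changed genes for LIP against CTL on day 0 and 49.2% on day 2, and the false share of calls was 4.23% and 10.5%. Alternatives were RLE, upper-quartile and library-total scaling, DESeq2 1.42.0, other filters, other libraries in the fit and leaving out each library. The members and the gene lists were chosen with earlier results of these data known. All 10 members are named. Of the lists, up to 3 genes with the smallest p between the days in each group are named, with every gene at an unadjusted p under 0.05 between LIP and CTL, and for likeness the 2 genes with the highest r. A gene of these lists enters their total counts and is otherwise not reported here. Lyst, and the marker genes given with values, fall outside this rule and were named after their values were seen. Exact (Clopper-Pearson) intervals and count limits cover counting error only. An exact permutation test of 3 against 3 libraries cannot go below p = 0.1 and was not used.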

Additional observations from a re-analysis of the deposited data

Results flagged for a closer look

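Ctsw differed between the groups in its change from day 0 to day 2. Its interaction term was -2.15 on the log2 scale (edgeR's quasi-likelihood test, adjusted p = 0.023, all 12 libraries), with a change of -0.41 for CTL and -2.56 for LIP. DESeq2 gave -2.14 (adjusted p = 1.09e-06), but on leaving out each library the call was lost in 8 of 12 cases (adjusted p = 0.0514 to 0.12). Ctsw was among the genes chosen with this result known, so the value is a description.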

How the results depend on the processing

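Each comparison of 2 groups was unpaired, because the groups share fewer than 2 replicate numbers in the labels. The fit of all 12 libraries held no term for the replicate number either. For LIP against CTL on day 0, 0 of the 10 genes were called, against 2 with DESeq2, 4 with no filter on low counts and 1 with at least 10 counts in every library, and 0 to 4 on leaving out each library (4 without CTL 94). On day 2, 0 were called, against 3 with DESeq2, 4 with no filter, 2 with all 12 libraries in one fit and 0 to 3 on leaving out each library (3 without LIP 90). Between the days, the filter of 10 counts left 4 members and called 2 for CTL and 4 for LIP, where 7 and 9 are reported and the other alternatives called 5 to 8 and 8 to 10. For the interaction, 1 gene was called, against 2 with DESeq2, 3 with no filter and 0 to 1 on leaving out each library. The direction turned for Gzmk on day 0 (0.245, 0.229 and 0.114 without CTL 88, CTL 94 and LIP 94), for Prf1 on day 2 (-0.131 without CTL 92 and -0.506 without LIP 96) and for Gzma between the days (-1.25 without CTL 97 in the CTL group and -0.641 without LIP 96 in the LIP group), and none of these was called. On leaving out each library these values ranged from -0.558 to 0.245 for Gzmk, from -0.506 to 0.456 for Prf1, and for Gzma from -1.25 to 1.52 (CTL) and from -0.641 to 1.77 (LIP). Over all genes, LIP against CTL on day 0 called 60 genes, against 206 with DESeq2 and 645 with no filter, and on day 2 it called 0, against 489 and 662. The interaction called 8, against 531 and 815. Upper-quartile and library-total scaling moved the median of all genes between the days to -0.307 and -0.21 in the CTL group and to -0.32 and -0.362 in the LIP group, and the share of calls that rose from 51.1% to 38.4% and 42.4% and from 51% to 37.7% and 36.2%. Library-total scaling also moved that share from 13.3% to 30.2% for LIP against CTL on day 0 and from 62.5% to 9.28% for the interaction, where it called 97 genes. The cause of these changes was not tested.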
